A study of Mus musculus with 12 samples.

Results

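The genes described here are 9 membrane carriers of organic anions and drugs: Slco1a1, Slco1b2, Slc22a7, Abcc2, Abcc3, Slco1c1, Slco1a4, Abcg2 and Slco2b1. They were taken as a named list, and every probe set that the platform annotation pairs with 1 of them was used, 16 of the 45141 probe sets on the array. The probe set with the highest mean log2 intensity over all arrays stands for the gene. These are 9 of 17097 genes measured, and all 9 were among the 13073 genes tested, which lay at or above the median of their array in at least 3 arrays. Of the 9, 5 passed that filter in either tissue alone (Slco1a1, Slc22a7, Slco1a4, Abcg2 and Slco2b1), 3 passed through the liver arrays only (Slco1b2, Abcc2 and Abcc3) and 1 through the brain arrays only (Slco1c1). For the last 4 genes a tissue difference is built into passing, so their tissue differences are given as sizes.

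Brain and liver came from male BALB/c mice of 10 weeks, with no altered gene and no drug named in the labels. Mice were dissected at death (0 h), once the body had lain at room temperature for 3 h, or once it had been kept for 18 h at 4 °C, a condition modelled on human autopsy. Tissue was either put in RNAlater and frozen (fresh-frozen, FF) or fixed in 10% formalin for 24 h, embedded in paraffin, kept for 7 d at room temperature and sliced at 10 µm (FFPE). The 2 tissues, 2 preservations and 3 times gave 12 conditions with 1 array each. FF RNA was labelled from its 3' end and FFPE RNA with a whole-transcript kit, so preservation and labelling cannot be told apart, and neither can time and storage temperature. The sources used here do not give the number of mice or say which arrays share one, so mouse and time cannot be told apart. The p-values measure the spread between arrays. For tissue and preservation the 3 times of a series stand in for replicates, so the SE takes in changes with time. For time, the spread comes from how far the FF and FFPE changes of a tissue disagree. That spread may hold no variation between mice.

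Liver cells take organic anions such as bile acids, bilirubin conjugates, steroid sulfates and many drugs from the blood through uptake carriers in the sinusoidal membrane, conjugate them, and pump the products into bile or back into blood. Uptake is largely the work of organic anion transporting polypeptides (the Slco genes) and of members of the Slc22 family, and export that of ATP-driven pumps (the Abc genes). The endothelium of brain capillaries carries a related set, in which some carriers bring hormones into the brain and others return drugs to the blood. The 9 genes were set in groups by textbook role: 5 hepatocyte carriers (Slco1a1, Slco1b2, Slc22a7, Abcc2 and Abcc3) and 4 carriers known from the blood-brain barrier (Slco1c1, Slco1a4, Abcg2 and Slco2b1). The last 3 of these are known from the hepatocyte as well.

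Slco1c1, Slco1b2, Slco1a4 and Slco1a1 lie in this order in 1 cluster of 8 protein-coding genes on chromosome 6 (RefSeq, GRCm38.p6). Their upstream windows are shown because these neighbours had unlike tissue patterns: Slco1c1 was higher in brain, Slco1b2 and Slco1a1 were higher in liver, and Slco1a4 was near the same level in both FF tissues. The 250 bases before the annotated start are printed 5′ to 3′ on the strand of the gene. They are chr6:141524104-141524353 for Slco1c1 and chr6:141629268-141629517 for Slco1b2, both on the plus strand, and chr6:141856221-141856470 for Slco1a4 and chr6:141946963-141947212 for Slco1a1, both on the minus strand. Capitals mark the motifs searched on both strands: GTTAAT, read as ATTAAC from the other strand, a half-site of the liver factor HNF1, and TATAAA, read as TTTATA from the other strand, the TATA box. The motifs do not overlap each other.
Slco1c1: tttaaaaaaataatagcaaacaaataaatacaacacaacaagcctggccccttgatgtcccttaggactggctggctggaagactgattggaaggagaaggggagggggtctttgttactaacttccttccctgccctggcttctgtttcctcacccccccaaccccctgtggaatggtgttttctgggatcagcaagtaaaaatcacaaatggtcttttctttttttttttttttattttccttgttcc
Slco1b2: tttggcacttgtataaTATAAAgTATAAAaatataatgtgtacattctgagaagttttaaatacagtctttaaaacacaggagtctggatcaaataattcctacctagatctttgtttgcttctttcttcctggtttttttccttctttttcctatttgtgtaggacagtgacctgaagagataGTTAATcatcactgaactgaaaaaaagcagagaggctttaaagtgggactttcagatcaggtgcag
Slco1a4: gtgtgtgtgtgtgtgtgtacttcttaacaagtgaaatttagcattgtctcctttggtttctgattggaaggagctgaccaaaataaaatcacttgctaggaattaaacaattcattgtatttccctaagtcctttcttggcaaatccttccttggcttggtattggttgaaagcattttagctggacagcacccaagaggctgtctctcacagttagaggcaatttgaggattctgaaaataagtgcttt
Slco1a1: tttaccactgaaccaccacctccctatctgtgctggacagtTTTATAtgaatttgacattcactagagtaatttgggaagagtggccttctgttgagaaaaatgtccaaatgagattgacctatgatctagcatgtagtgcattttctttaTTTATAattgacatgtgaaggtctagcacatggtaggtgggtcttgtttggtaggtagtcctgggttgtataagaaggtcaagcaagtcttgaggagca
The window of Slco1b2 held GTTAAT 61 to 66 bases before the start, and TATAAA at 222 to 227 and at 229 to 234 bases before it. That of Slco1a1 held TATAAA on the opposite strand at 94 to 99 and at 204 to 209 bases. Neither motif stood in the windows of Slco1c1 and Slco1a4. GTTAAT was present in 6.43% of all 32851 windows of the table, and TATAAA in 12.4%. These matches describe letters only. Of the 9 genes, 7 had a window, and Slc22a7 and Abcc3 are named only.

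The mean of the hepatocyte markers followed the tissue labels, while single markers of other cell types did not all do so. The astrocyte marker Aldh1l1 was at 10.52, 10.39 and 10.27 in FF liver and at 6.80, 6.86 and 6.92 in FF brain. The mean log2 level of 10 hepatocyte markers was 11.89 to 12.31 in the 6 liver arrays and 5.17 to 5.53 in 5 of the 6 brain arrays. The FF brain array at 0 h stood apart at 6.83, and its albumin gene Alb was at 8.74 against 6.11 and 5.53 in the other FF brain arrays. In FFPE brain at 0, 3 and 18 h Alb was at 7.57, 7.03 and 7.06, and Apoa1 at 6.79, 5.41 and 5.59. Ttr, also in the hepatocyte list, was at 8.68, 12.72 and 12.21 in FF brain and at 5.77, 12.52 and 12.03 in FFPE brain. It thus raised the marker means of the later brain arrays. Deposited log2 values ran from 2.66 to 13.44 over all arrays. Medians of the FF arrays were 4.65 to 4.68 and those of the FFPE arrays 4.80 to 4.88, and the 2 preservations did not share 1 scale.

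The hepatocyte carriers were at 7.39 to 11.23 in the liver arrays and at 3.45 to 5.83 in the brain arrays. All 5 were higher in liver in FF tissue, by 4.27 to 7.17 on the log2 scale (19.3-fold to 144-fold). Calls were counted over the 5 of the 9 genes that passed the filter in either tissue alone. In FF 4 of these were higher in liver, and Slco1a4 did not pass the threshold (limma, adjusted p under 0.05, 3 arrays a side). Of the 10362 genes that likewise passed in either tissue, 66.5% were called. Of all genes tested, 69.9% were called, 34.2% higher and 35.6% lower. In FFPE all 5 were higher in liver, against 57.4% of the 10362 genes called and 59.1% of all genes, 31.8% higher and 27.3% lower. As a description, the median difference was 5.45 in FF and 5.47 in FFPE for the hepatocyte carriers, 1.51 and 1.62 for the blood-brain barrier carriers, and 0.04 in both for all genes tested. The 3 liver and 3 brain arrays did not overlap for 4 of the 5 genes in FF and for 4 of 5 in FFPE, against 71.2% and 63.1% of the 10362 genes and 74.2% and 65.6% of all genes.

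**Figure D1:**
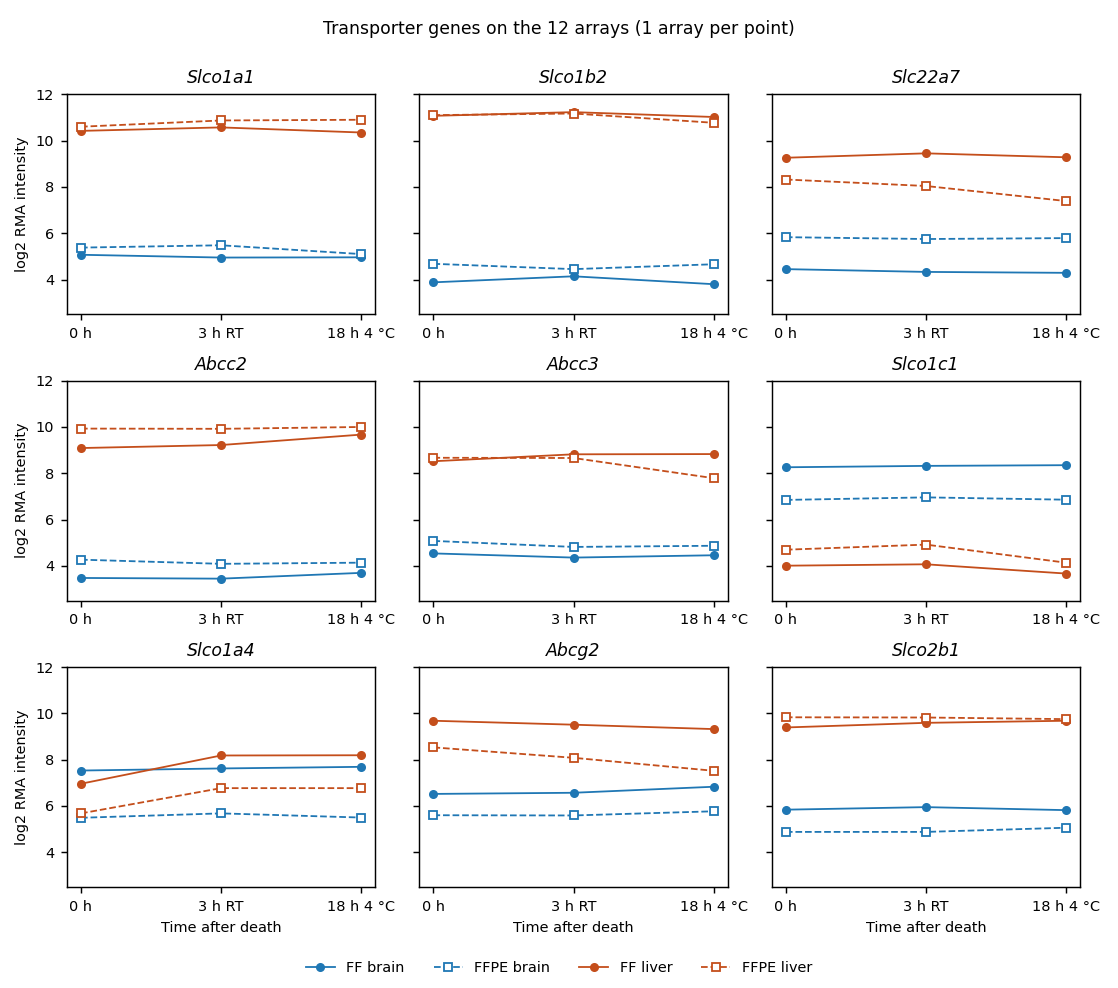
Log2 RMA intensity (y axis) of the main probe set of each of the 9 genes against time after death (x axis; RT, room temperature), 1 array per point, with FF brain, FF liver, FFPE brain and FFPE liver as separate lines. Slco1c1 lies higher in brain, Slco1a4 in FF starts at 6.96 in liver against 7.53 in brain at 0 h and reaches 8.18 against 7.62 at 3 h, and the other 7 genes lie higher in liver at every time.

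Slco1b2 encodes the main hepatocyte uptake carrier of this family for bile acids and bilirubin conjugates. At 0, 3 and 18 h its log2 level was 11.07, 11.23 and 11.02 in FF liver and 3.88, 4.14 and 3.80 in FF brain. In FFPE it was 11.10, 11.17 and 10.77 in liver and 4.68, 4.45 and 4.66 in brain. The gap between the tissues exceeded 6 log2 units at every time, and the liver levels of the 2 preservations overlapped. Liver exceeded brain by 7.17 ± 0.14 in FF (SE, n = 3 arrays a side) and by 6.42 ± 0.14 in FFPE.

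Slco1a1 encodes a sinusoidal uptake carrier of liver and kidney. It was at 10.42, 10.57 and 10.35 in FF liver and at 5.07, 4.95 and 4.96 in FF brain. FFPE liver gave 10.60, 10.87 and 10.90, and FFPE brain 5.38, 5.48 and 5.10. With the main probe set the tissues were as far apart in fixed as in frozen tissue. The difference was 5.45 ± 0.13 in FF (limma, adjusted p = 1.34e-13) and 5.47 ± 0.13 in FFPE (adjusted p = 2.09e-13). The test of the difference between these gaps gave 0.02 with a 95% interval of -0.38 to 0.41.

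Slc22a7 encodes Oat2, which takes up organic anions and nucleobases across the sinusoidal membrane. Its level was 9.26, 9.45 and 9.28 in FF liver but 8.32, 8.04 and 7.39 in FFPE liver. Brain gave 4.45, 4.33 and 4.29 in FF and 5.83, 5.75 and 5.79 in FFPE. Fixed tissue therefore lay lower in liver and higher in brain at each time, and liver and brain still did not overlap. Liver exceeded brain by 4.97 ± 0.18 in FF (adjusted p = 1.1e-11) and by 2.13 ± 0.18 in FFPE (adjusted p = 1.8e-07).

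Abcc2 (Mrp2) is the canalicular pump that exports bilirubin glucuronides into bile, and Abcc3 (Mrp3) is a basolateral pump that returns conjugates to blood. Abcc2 was at 9.09, 9.22 and 9.67 in FF liver and at 3.48, 3.45 and 3.70 in FF brain. Its FFPE levels were 9.93, 9.92 and 10.00 in liver and 4.27, 4.09 and 4.14 in brain. Both tissues lay 0.62 ± 0.14 higher in FFPE (adjusted p = 0.00128 in brain and 0.00181 in liver), so the tissue difference was 5.78 in each preservation. Its main probe set, 1450109_PM_s_at, carries a suffix that Affymetrix gives to sets whose probes match more than 1 transcript. Abcc3 was at 8.52, 8.82 and 8.83 in FF liver and at 8.67, 8.66 and 7.79 in its FFPE counterpart. In brain it was at 4.54, 4.36 and 4.46 in FF and at 5.08, 4.82 and 4.87 in FFPE. The FFPE liver array at 18 h was the low one, and the tissue difference was 4.27 ± 0.20 in FF and 3.45 ± 0.20 in FFPE.

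The blood-brain barrier carriers did not share 1 direction between the tissues. Slco1c1 was higher in brain, Slco2b1 and Abcg2 were higher in liver, and Slco1a4 stood between them.

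Slco1c1 (Oatp14) carries thyroxine across brain capillaries and the choroid plexus. It was at 8.26, 8.32 and 8.35 in FF brain and at 4.01, 4.07 and 3.67 in FF liver. FFPE levels were 6.85, 6.96 and 6.86 in brain and 4.70, 4.92 and 4.14 in liver. Brain was above liver at every time, with liver minus brain at -4.39 ± 0.17 in FF (21.0-fold) and -2.30 ± 0.17 in FFPE (4.94-fold). Its 3 brain levels lay close together in each preservation, while 5 choroid plexus markers averaged 4.24, 5.55 and 4.89 in the FF brain arrays of 0, 3 and 18 h. In bulk tissue, fewer cells of a type and less RNA per cell cannot be told apart.

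Slco2b1 encodes an uptake carrier of steroid sulfates and drugs. Its level was 9.39, 9.59 and 9.68 in FF liver and 5.84, 5.95 and 5.82 in FF brain. In FFPE tissue it was 9.83, 9.82 and 9.75 in liver and 4.88, 4.88 and 5.06 in brain. Liver was higher by 3.68 ± 0.11 in FF and by 4.86 ± 0.11 in FFPE, the wider gap going with the lower FFPE brain level. Abcg2 (Bcrp) is an efflux pump of the bile canaliculus and of the luminal face of brain capillaries. It was at 9.68, 9.51 and 9.32 in FF liver and at 6.52, 6.57 and 6.83 in FF brain. FFPE gave 8.53, 8.08 and 7.52 in liver and 5.60, 5.59 and 5.77 in brain. Both tissues lay lower in FFPE, and liver remained above brain by 2.86 ± 0.20 in FF (7.28-fold) and 2.39 ± 0.20 in FFPE (5.24-fold).

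Slco1a4 (Oatp2) is an uptake carrier of bile acids, steroid conjugates and cardiac glycosides, present in hepatocytes and in brain capillaries. It was at 7.53, 7.62 and 7.69 in FF brain and at 6.96, 8.18 and 8.19 in FF liver. The FF liver level was the lowest of these arrays at 0 h and the highest at 3 h and 18 h, so the tissues overlapped. FFPE brain gave 5.49, 5.68 and 5.50, and FFPE liver 5.68, 6.77 and 6.77, again with the 0 h liver array at the level of brain. Averaged over the times, liver minus brain was 0.16 ± 0.32 in FF (95% interval -0.52 to 0.85, adjusted p = 0.662) and 0.85 ± 0.32 in FFPE (adjusted p = 0.0342). The FFPE difference did not pass in 5 of the fits that leave out 1 array (adjusted p 0.0566 to 0.1304), those without any of the FFPE brain arrays or without the FFPE liver array at 3 h or 18 h, nor with no filter on low values (adjusted p = 0.0506) or every probe set fitted on its own (adjusted p = 0.0534).

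**Figure D2:**
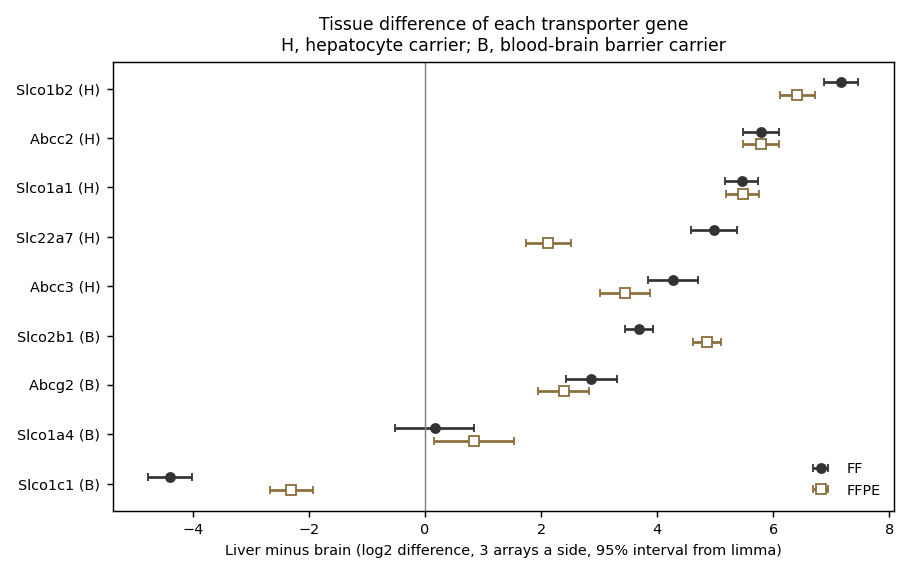
Liver minus brain (x axis, log2 difference) for each gene (y axis), with FF as filled circles and FFPE as open squares, from 3 arrays a side. Bars are 95% intervals from limma, H marks hepatocyte carriers and B carriers of the blood-brain barrier. The H genes all lie above 0, the B genes run from -4.39 to 4.86, and the FF interval of Slco1a4, -0.52 to 0.85, includes 0.

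The counts for other genes of these carrier families and their regulators in FF stand against the 69.9% of all genes called. Nothing particular to a list is read from them. They were not restricted to genes that passed the filter in either tissue alone. Slc10a1, Slc10a2, Slc22a30, Abcg5 and Abcb11, for example, lay below the array median in most brain arrays. For such genes a tissue difference is built into passing, so the differences are given as sizes. Of 19 other Slco, Slc10 and related carriers, 8 were tested in FF, and 4 were higher in liver and 1 lower. The largest of these were Slc10a1, the sodium-dependent bile acid carrier, at 6.87 ± 0.13, and Slc10a2 at 4.52 ± 0.49, followed by the prostaglandin carrier Slco2a1 at 2.35 ± 0.18 and Slco3a1 at -1.65 ± 0.12. Among 15 tested Slc22 and Slc47 genes 10 were higher and 3 lower, led by Slc22a30 (6.0 ± 0.11), the cation exporter Slc47a1 (5.10 ± 0.20), Slc22a17 (-4.50 ± 0.16) and Slc22a18 (1.71 ± 0.34). Among 10 tested ABC pumps 5 were higher and 4 lower. The 4 largest were the sterol pump Abcg5 (5.96 ± 0.16), the bile salt pump Abcb11 (5.54 ± 0.12), Abcc6 (4.99 ± 0.22) and the phospholipid pump Abcb4 (4.31 ± 0.14). Of 5 tested thyroid hormone genes, Dio1, an activating deiodinase of liver, was higher in liver (4.42 ± 0.46), and Dio2, the deiodinase of brain, was lower (-3.99 ± 0.12), as were the amino acid and thyroid hormone carriers Slc7a5 (-1.83 ± 0.16) and Slc7a8 (-1.33 ± 0.15). Of 17 transporter regulators and scaffolds 14 were higher in liver and 2 lower, the largest being the bile acid receptor Nr1h4 (5.30 ± 0.15), Ppara (5.19 ± 0.12), Hnf4a (5.04 ± 0.17) and the xenobiotic receptor Nr1i3 (4.81 ± 0.13).

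The gap between the tissues differed between FF and FFPE for 5 of the 9 genes, against 46.9% of all genes tested. It was smaller in FFPE for Slc22a7, with a difference of -2.85 ± 0.26 (adjusted p = 1.65e-06), for Slco1b2, with -0.75 ± 0.19 (adjusted p = 0.0068), and for Abcc3, with -0.82 ± 0.28 (adjusted p = 0.0301). For Slco1c1 the gap also shrank, the signed difference rising by 2.09 ± 0.24 (adjusted p = 1.64e-05). Slco2b1 had the wider gap in FFPE, by 1.18 ± 0.16 (adjusted p = 4.86e-05). The 4 genes that did not pass were Slco1a4 (0.69, 95% interval -0.29 to 1.66), Abcg2 (-0.47, -1.10 to 0.15), Slco1a1 (0.02, -0.38 to 0.41) and Abcc2 (0.00, -0.44 to 0.44). With terms for time in the model, Slco1a4 (0.69 ± 0.16, adjusted p = 0.0028) and Abcg2 (-0.47 ± 0.19, adjusted p = 0.0465) passed as well. With quantile normalization across all arrays the Abcc3 difference was -0.20 (adjusted p = 0.496) and that of Slco1b2 -0.47 (adjusted p = 0.055). Leaving out the FF brain array at 3 h or 18 h, the FF liver array at 3 h or 18 h, or the FFPE brain array at 0 h also ended the Abcc3 call (adjusted p 0.0523 to 0.0734). Without the FFPE liver array at 0 h, Slco1a4 (1.05, adjusted p = 0.0422) and Abcg2 (-0.72, adjusted p = 0.0279) passed.

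In brain the main probe sets of the 2 groups of carriers differed in opposite directions between FFPE and FF. All 5 hepatocyte carriers were higher in FFPE than in FF brain, by 0.33 to 1.43. All 4 blood-brain barrier carriers were lower, by 0.93 to 2.06. The groups also differed in level, at 3.45 to 5.07 and 5.82 to 8.35 in FF brain. Array lower quartiles were 3.88 to 3.89 in FF brain and 4.11 to 4.14 in FFPE brain. Upper quartiles were 6.40 to 6.44 and 5.90 to 5.93. The part of level in these directions was not tested. The other Slco2b1 sets differed less: 1454777_PM_at averaged 5.68 in FF and 5.54 in FFPE brain, and 1458171_PM_at 4.79 and 4.74. All 9 passed the threshold, against 78.6% of all genes, 27.1% higher and 51.5% lower, with a median difference of -0.42. The drop was largest for Slco1a4 (-2.06 ± 0.32) and Slco1c1 (-1.42 ± 0.17), and the rise for Slc22a7 (1.43 ± 0.18). The small rises of Slco1a1 (0.33) and Abcc3 (0.47) did not pass with quantile normalization (0.27, adjusted p = 0.101, and 0.25, adjusted p = 0.162), nor Abcc3 with no filter (adjusted p = 0.0511). With the mean of all probe sets Slco1a1 was at 0.19 (adjusted p = 0.200) and Slco1b2 at 0.26 (adjusted p = 0.0897). Without the FF brain array at 0 h, which carried hepatocyte transcripts, Abcc3 was at 0.51 (adjusted p = 0.0635), and leaving out any other brain array (adjusted p 0.0594 to 0.1407) or the FF liver array at 3 h (adjusted p = 0.0545) ended the Abcc3 call as well. The Slco1a1 call ended without the FF brain array at 3 h or 18 h or the FFPE brain array at 0 h or 3 h (adjusted p 0.0819 to 0.1308). The mean of 7 brain endothelial markers was 6.88 to 7.02 in FF brain and 5.79 to 5.90 in FFPE brain, and its part in the lower carrier levels was not tested.

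In liver 6 of the 9 differed between FFPE and FF, against 66.4% of all genes, 26.0% higher and 40.4% lower, with a median difference of -0.17. Lower in FFPE were Abcg2 (-1.46 ± 0.20), Slc22a7 (-1.41 ± 0.18) and Slco1a4 (-1.37 ± 0.32). Higher were Slco1c1 (0.67 ± 0.17), Abcc2 (0.62 ± 0.14) and Slco1a1 (0.34 ± 0.13, adjusted p = 0.031). The Slco1a1 call was lost in the fits without the FF liver array at 0 h or 18 h or the FFPE liver array at 3 h or 18 h (adjusted p 0.0693 to 0.0923). Slco1b2, Abcc3 and Slco2b1 did not pass, with -0.09, -0.35 and 0.25. Slco2b1 passed with quantile normalization (0.46, adjusted p = 0.0051), with the mean of all probe sets (0.23, adjusted p = 0.0187) and with no filter (adjusted p = 0.0417). It also passed in limma with every probe set fitted on its own (adjusted p = 0.0389) and without the FF liver array at 18 h (0.31, adjusted p = 0.0341).

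The 5 Slco1b2 probe sets gave unlike pictures of preservation. The main set, 1449394_PM_at, and 1452494_PM_s_at were at like levels in FF and FFPE liver, with FFPE minus FF of -0.09 and 0.08. The other 3 sets are listed against 1 and the same sequence record, and all were higher in FFPE liver. The set 1427826_PM_a_at was at 8.35, 6.09 and 6.05 in FF liver and at 11.47, 10.89 and 10.64 in FFPE, a difference of 4.17 ± 0.48 (adjusted p = 1.53e-05). The set 1452569_PM_at was at 4.76, 4.64 and 4.61 in FF liver, close to its brain mean of 4.16, and at 8.58, 8.58 and 8.98 in FFPE liver. For 1427825_PM_at the levels were 4.39, 4.69 and 4.63 in FF and 6.14, 6.21 and 6.55 in FFPE. With the mean of all 5 sets as the gene's value, Slco1b2 was higher in FFPE liver by 1.99 (adjusted p = 2.34e-07), and the tissue gap was wider in FFPE by 1.73 (adjusted p = 1.51e-05), both opposite in sign to the main probe set. The sources used here do not give the place of each probe set in the transcript, and labelling from the 3' end against the whole transcript was not tested as a source of the disagreement.

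**Figure D3:**
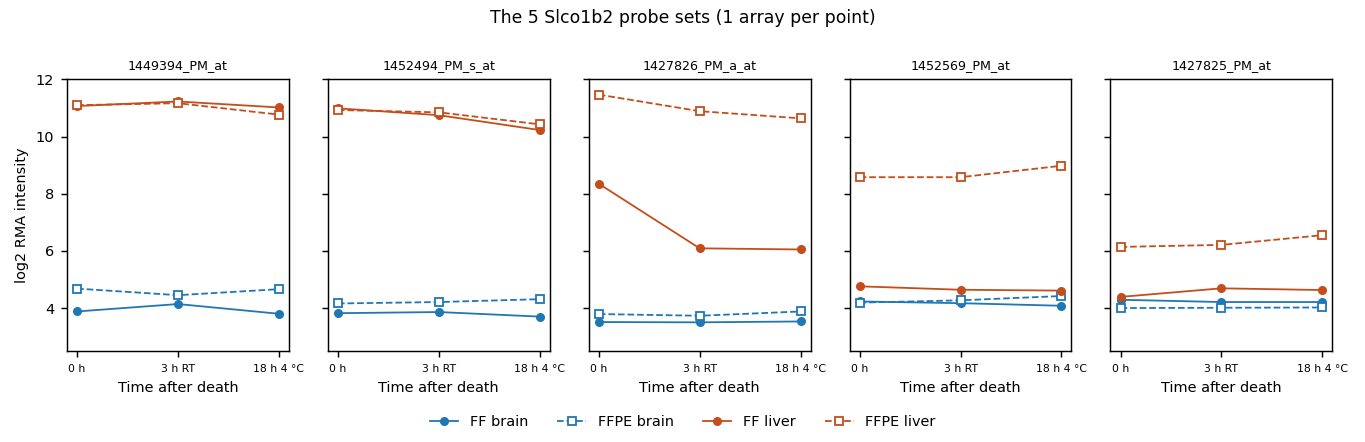
Log2 RMA intensity (y axis) of the 5 Slco1b2 probe sets, 1 panel each, against time after death (x axis; RT, room temperature), 1 array per point. The first panel is the main set. FF and FFPE liver coincide in the first and second panels and separate in the other 3, where FF liver is at 8.35 or below.

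Slco2b1 had 3 probe sets and Slco1a1 a second one. The Slco2b1 set 1454777_PM_at was higher in liver by 2.29 in FF and 2.27 in FFPE, so the widening seen with the main set was -0.02 there (adjusted p = 0.94). The set 1458171_PM_at was at 4.79 ± 0.01 in FF brain and 4.90 ± 0.06 in FF liver (SD, n = 3), and its tissue difference of 0.11 did not pass. In FFPE it was at 4.74 ± 0.15 in brain and 5.50 ± 0.38 in liver, a difference of 0.76 ± 0.15 (adjusted p = 0.00133), which was wider than in FF by 0.65 ± 0.22 (adjusted p = 0.0341). The second Slco1a1 set, 1449844_PM_at, was higher in liver by 4.92 ± 0.21 in FF and 5.57 ± 0.21 in FFPE. The near equal gaps of the main set were thus not seen with it. Slco1a1, Slco1a4, Slco1a5 and Slco1a6 are close relatives, and cross-hybridisation between them was not tested. Their neighbour Slco1a5 differed between the tissues by 0.20 in FF and 0.14 in FFPE, and Slco1a6 did not reach the filter.

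The change after death was fitted as 1 value common to both preservations of a tissue, with 2 arrays at each time. After 3 h at room temperature Slco1a4 was the only gene of the 9 to pass the threshold in liver, against 0.245% of all genes tested. It rose by 1.22 in FF and by 1.09 in FFPE, from 6.96 to 8.18 and from 5.68 to 6.77. The shared rise was 1.16 ± 0.14 (2.23-fold, 95% interval 0.86 to 1.45, adjusted p = 0.0045). A rise of at least 2-fold between these single arrays was seen for 0.13% of genes in the FF pair and 0.252% in the FFPE pair. Without the FF liver array at 3 h the rise was 1.12, and without the FFPE liver array at 3 h it was 1.19. The call was lost in both fits. Each leaves 1 liver array at 3 h, and fewer of all genes were called. With the liver arrays fitted alone the rise was 1.16 (limma, adjusted p = 0.0932), and 0 of all genes tested passed. With their main probe sets the other 8 genes differed by -0.31 to 0.21 and did not pass. The Slco1b2 set 1427826_PM_a_at differed from 0 h by -2.26 in FF liver and by -0.58 in FFPE liver.

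After 18 h at 4 °C Slco1a4 stood at the level of the 3 h arrays, at 8.19 in FF and 6.77 in FFPE liver, a rise over 0 h of 1.16 ± 0.14 (adjusted p = 0.00027). The 3 h and 18 h comparisons share their 0 h arrays, and 18 h minus 3 h was 0.01 in FF and 0.00 in FFPE. Abcg2 fell by 0.69 ± 0.16 (1.61-fold, adjusted p = 0.0133), from 9.68 to 9.32 in FF and from 8.53 to 7.52 in FFPE. Thus 2 of the 9 genes passed at 18 h, against 14.5% of all genes. The Abcg2 call did not hold without the FFPE liver array at 0 h (-0.45, adjusted p = 0.174) or at 18 h (-0.43, adjusted p = 0.112), or with the liver arrays alone (adjusted p = 0.0621).

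The other genes at 18 h in liver did not pass, and some moved unlike in the 2 preservations. Slc22a7 differed from 0 h by 0.02 in FF and by -0.93 in FFPE, and Abcc3 by 0.31 and -0.88. Without the FF liver array at 18 h the count of genes past the threshold was 5 rather than 2, with Slc22a7 at -0.81, Abcc3 at -0.80 and Slco1c1 at -0.60 joining, and without the FF liver array at 0 h Slc22a7 passed at -0.81 (adjusted p = 0.0268). Slco1c1 was at -0.45 ± 0.14 (adjusted p = 0.0531) near its low liver level. It passed with quantile normalization (-0.49, adjusted p = 0.0488) and in the limma fit on means of all probe sets (-0.45, adjusted p = 0.0314). Abcc2 was 0.32 ± 0.16, with 0.58 in FF and 0.07 in FFPE. Slco1b2 was -0.19 and Slco1a1 0.11 with the main probe sets. The second sets of both genes fell at 18 h: 1449844_PM_at of Slco1a1 was at 9.51, 9.35 and 8.63 in FF liver and at 10.08, 10.06 and 9.47 in FFPE liver (-0.75 ± 0.12, adjusted p = 0.00503). The Slco1b2 set 1452494_PM_s_at fell by 0.63 ± 0.12 (adjusted p = 0.0128), and 1427826_PM_a_at by 1.56 ± 0.32 (adjusted p = 0.0153), all fitted with every probe set on its own. For these 2 genes the probe sets disagree on whether the level fell.

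In brain the differences of the 9 genes from 0 h were small, and the median absolute difference of all genes tested was 0.105 at both times. Abcc2 (percentile 9.4 to 17.7) and Slco1b2 (21.4 to 34.4) lay low on the FF brain arrays. Such levels cannot be told apart from background signal. At 3 h the differences from 0 h were -0.22 to 0.14 and at 18 h -0.19 to 0.24. By limma 0 of 9 passed at either time, where 0.0765% and 0.0306% of all genes passed, and 684 and 494 genes had an unadjusted p under 0.05. Slco1a4 differed by 0.14 (95% interval -0.16 to 0.44) at 3 h and 0.09 (-0.21 to 0.38) at 18 h. In FF brain, where the hepatocyte marker mean was 6.83, 5.53 and 5.36, the 5 hepatocyte carriers differed from 0 h by -0.18 to 0.26 at 3 h and by -0.16 to 0.22 at 18 h. That marker mean includes Ttr, also a choroid plexus gene, at 8.68, 12.72 and 12.21. The part of liver transcripts in these small differences was not tested.

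**Figure D4:**
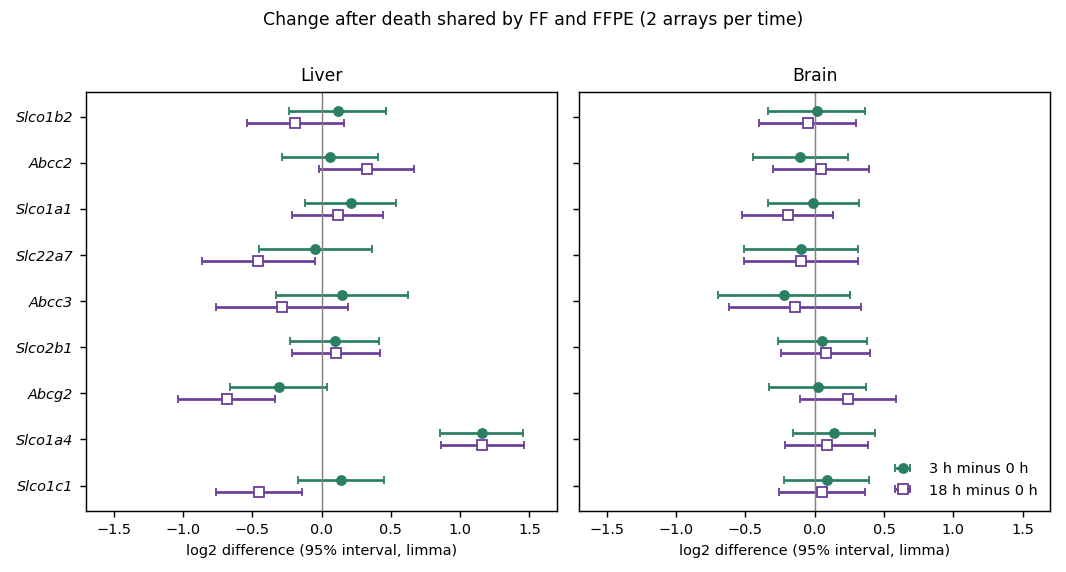
Change from 0 h (x axis, log2 difference shared by FF and FFPE, 2 arrays per time) of each gene (y axis) at 3 h (filled circles) and 18 h (open squares), with liver in the left panel and brain in the right. Bars are 95% intervals from limma. In liver Slco1a4 lies at 1.16 at both times and Abcg2 at -0.69 at 18 h, and in brain every interval includes 0.

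The change at 18 h differed between the tissues for Slco1a4, by 1.07 ± 0.19 (adjusted p = 0.0101), and for Abcg2, by -0.93 ± 0.23 (adjusted p = 0.0382), 2 of the 9 genes against 4.48% of all genes. Leaving out any 0 h or 18 h brain array ended both calls, with Slco1a4 at 0.975 to 1.175 and Abcg2 at -0.98 to -0.87. These fits leave 1 brain array at that time, and far fewer of all genes were called in them. The Abcg2 difference also missed the threshold without any other array except the FF liver arrays at 0 h and 18 h. At 3 h the Slco1a4 difference was 1.01 ± 0.19 (adjusted p = 0.162), and limma called 0 of the 9 genes and 0.0153% of all genes, with 982 genes at an unadjusted p under 0.05.

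Cell markers moved in the liver arrays as well. In FF liver at 0, 3 and 18 h, 5 Kupffer cell markers averaged 6.64, 5.91 and 6.66, and in FFPE liver 6.63, 5.39 and 5.97. For 5 liver sinusoidal endothelial markers the FF means were 7.04, 6.49 and 7.57, and the FFPE means 6.47, 6.02 and 6.68. The 7 brain endothelial markers averaged 5.86, 5.80 and 6.01 in FF liver at these times, and 5.42, 5.66 and 5.73 in FFPE liver. Of these 7 markers only Mfsd2a passed in limma, by 0.84 ± 0.14 at 3 h (adjusted p = 0.0292) and 1.06 ± 0.14 at 18 h (adjusted p = 0.000518). The median difference of the 7 in liver was -0.055 at 3 h and 0.16 at 18 h. Mfsd2a was at 7.19, 8.08 and 8.22 in FF liver and at 6.71, 6.95 and 6.69 in FF brain. It therefore did not single out brain endothelium in these arrays. The mean of the hepatocyte markers lay between 11.89 and 12.31 in all liver arrays, and single markers lay outside this range. The part of these cells in the Slco1a4 and Abcg2 changes was not tested.

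The gene most like Slco1a4 over the 12 arrays, after each tissue and preservation was centred on its mean, was the haemoglobin gene Hbb-b2 (Pearson r = 0.979), followed by Nop56 (0.963) and Rdh13 (0.956). Hbb-b2 was at 10.66, 12.02 and 11.88 in FF liver and at 10.87, 12.12 and 11.89 in FFPE liver. Blood content of the liver pieces was not tested as a part of the Slco1a4 rise. For Abcg2 the closest genes were Spg21 (0.985), Rcbtb2 (0.983) and Depdc7 (0.974), and for Slco1c1 they were Ppp1cb (0.988), Rab2a (0.976) and the bile acid synthesis enzyme Cyp7a1 (0.975). Slc22a7 was closest to Med29 (0.990), Cmpk1 (0.980) and Wdr7 (0.972). The arrays share 4 means and the same mice may lie behind several, so these values are descriptions with no test.

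In the wider lists, at 3 h in liver, where 0.245% of all genes passed, 1 of the 8 other Slco and Slc10 genes passed, Slc10a2, which rose by 0.99 ± 0.15 (adjusted p = 0.0171), and none of the 15 Slc22 and Slc47 genes, 10 ABC pumps, 5 thyroid hormone genes and 17 regulators passed in the same limma fit, in which 1206 of all genes had an unadjusted p under 0.05. At 18 h, where 14.5% of all genes passed, Slc10a2 was below 0 h by 1.14 ± 0.15 (adjusted p = 0.000484, signed difference -1.14). Slc22a18 was at -1.38 ± 0.16 (adjusted p = 0.000231) and Dio1 at -1.66 ± 0.18 (adjusted p = 0.000195), each the only gene of its list to pass. No ABC pump of the list passed at 18 h, where 3599 genes had an unadjusted p under 0.05. Of the 17 regulators and scaffolds 2 were higher and 5 lower at 18 h, the largest being Nfe2l2, a regulator of Abcc2 and Abcc3 (-0.83 ± 0.16), the scaffold protein moesin, Msn (0.71 ± 0.15), the scaffold Pdzk1 (-0.59 ± 0.14) and the xenobiotic receptor Ahr (-0.55 ± 0.15). In brain the thyroxine carrier Ttr of the choroid plexus rose by 5.39 ± 0.47 at 3 h (adjusted p = 0.00034) and 4.89 ± 0.47 at 18 h (adjusted p = 0.00102), while Slco1c1 was at 0.08 and 0.05.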

How the data were processed

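The deposited values are log2 intensities of the probe sets of Affymetrix MG-430 PM array strips. The submitters' processing notes name RMA and Affymetrix Expression Console, with versions not given in the sources used here. RMA corrects background, normalizes between arrays and summarises probes. Whether all 12 arrays went through 1 run is not given in the sources used here, and array medians differ between FF and FFPE. No further normalization was applied.

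After 104 control probe sets were set aside, 28898 probe sets had 1 gene in the platform annotation, 551 had several and 15588 none. Genes took their probe set of highest mean, which gave 17097 genes, of which 13073 passed the filter on low values. Tests used limma 3.58.1 in R 4.3.3 (lmFit and eBayes, two-sided), and p-values were adjusted by Benjamini-Hochberg across the 13073 genes, with calls at 0.05. Tissue and preservation were fitted with 4 means (8 residual degrees of freedom), and time with 8 coefficients (4 residual degrees of freedom). The 12 conditions had 1 array each, so their number limits the precision. The functions were checked on simulated data.

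All 9 carriers were covered in every comparison, some only within a range or a count. Up to 4 genes past the threshold were named from each wider list. The 3 genes most like a carrier were named for Slco1a4, Abcg2, Slco1c1 and Slc22a7, and those of the other carriers are not given. The marker genes Mfsd2a, Alb, Apoa1 and Aldh1l1 were named after their values were seen. Members and lists were chosen with earlier results of these data known. The alternatives were other probe set rules, no filter, quantile normalization, a robust spread, time terms, 1 tissue alone and leaving out each array. Upstream sequences are from RefSeq (GRCm38.p6), matched by symbol. Agreement between time comparisons that share 0 h arrays is not independent.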

Additional observations from a re-analysis of the deposited data

Results flagged for a closer look

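The tissue difference (liver minus brain) changed with preservation for 5 of the 9 carriers by the interaction test in limma, against 46.9% of all genes. FFPE minus FF of that difference was -2.85 for Slc22a7, -0.82 for Abcc3, -0.75 for Slco1b2, 2.09 for Slco1c1 and 1.18 for Slco2b1. For Slc22a7 the FFPE levels lay lower in liver and higher in brain, for Slco1c1 they lay lower in brain and higher in liver, and for Slco2b1 they lay lower in brain. The Slco1b2 value rests on the choice of probe set, and that of Slco2b1 was -0.02 on the set 1454777_PM_at and 0.65 on 1458171_PM_at. The Abcc3 call was lost with quantile normalization (-0.20, adjusted p = 0.496) and without any of 5 single arrays.

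The change from 0 h to 18 h differed between liver and brain for Slco1a4, by 1.07, and for Abcg2, by -0.93, with 4.48% of all genes called. Leaving out any brain array at 0 h or 18 h ended both calls, with the Slco1a4 difference at 0.975 to 1.175 and far fewer of all genes called. The Abcg2 call held in 4 of 17 alternatives. Slco1a4 was higher than at 0 h in both liver arrays at 18 h, and Abcg2 was lower in both.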

How the results depend on the processing

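Of 99 results, 1 for each of 9 genes in each comparison, 80 kept their side of the threshold under every alternative run, at most 19 for a result. The 30 of these past the threshold also kept their direction. They include the tissue calls of Slco1b2, Abcc2, Abcc3 and Slco1c1, for which a tissue difference is built into passing the filter. Of those short of the threshold, 31 changed sign in some alternative, such as Slco1a4 in FF tissue (-0.04 to 0.57). The mean of all probe sets reversed the Slco1b2 results: the FFPE against FF tissue difference became 1.73 and the FFPE minus FF difference in liver 1.99, and the cause was not tested. Quantile normalization left 3 genes past the threshold rather than 5 for the difference between FFPE and FF. Fitting the arrays of 1 tissue alone left 0 of the 9 genes at 3 h and 1 at 18 h in liver, with fewer samples behind each spread. Over all genes tested, 0 and 994 passed. Taking the 3 h arrays as the baseline for 18 h in liver, chosen after seeing the data, left 1 gene, Slco1c1 (-0.59, adjusted p = 0.0213), while Slco1a4 was at 0.01. For the tissue difference in the 18 h change, fitting every probe set on its own, no filter and quantile normalization each left 1 gene rather than 2, Slco1a4. With time terms in the model the FFPE against FF tissue differences of Slco1a4 (adjusted p = 0.0028) and Abcg2 (adjusted p = 0.0465) passed as well.

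Leaving out 1 array at a time gave 8 to 8 genes for tissue in FF, 8 to 9 in FFPE, 4 to 7 for their difference, 7 to 9 and 5 to 6 for preservation in brain and liver, 0 to 1 at 3 h and 1 to 5 at 18 h in liver, 0 to 0 at both times in brain, and 0 to 0 at 3 h and 0 to 2 at 18 h for the tissue difference in the change. Of the 13073 genes tested, the same fits called 8497 to 9459 for tissue in FF and 7068 to 8049 in FFPE. They called 5333 to 6662 for the difference, and 9797 to 10500 and 8092 to 8590 for preservation in brain and liver. The tissue counts of carriers include Slco1b2, Abcc2, Abcc3 and Slco1c1, for which a tissue difference is built into passing the filter. No robustness particular to the carriers is read from these counts. No paired analysis was possible because each condition had 1 array and the labels carry no replicate numbers. With 1 array per condition, changes seen in 1 preservation only, such as those of Slc22a7 and Abcc3 at 18 h, have no replicate. The files used here hold no detection call, and low levels cannot be told apart from background signal.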
